A study of Mus musculus with 8 samples.

Results

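The TAM receptor tyrosine kinases Mertk, Axl and Tyro3, their ligands Gas6 and Pros1, and the bridging protein Mfge8 were followed in sorted pancreatic tumour cells of mice given an antibody against LIF (leukaemia inhibitory factor) or control IgG. They were taken by gene symbol from the table of raw read counts. All 6 were among its 24537 genes and all 6 passed the filter on low counts, which left 14711 genes for the test. The mice, of strain FVB/NJ, carried the alleles KrasLSL-G12D, Tp53f/f and Rosa26LSL-Luc together with Pdx1-Cre, which drives recombination in the pancreatic epithelial lineage. In both arms treatment began at 42 to 43 days of age, with gemcitabine on days 1 and 4 (50 mg/kg) and antibody on days 1, 3 and 5 (25 mg/kg). Whole tumours were dissected on day 6, at about 48 days of age, and EpCAM+ cells were sorted without culture. Polyadenylated RNA was sequenced from 4 anti-LIF tumours (libraries KPCL-PCC_227_GA, then KPCL-PCC_310_GA, then KPCL-PCC_354_GA and last KPCL-PCC_391_GA) and 4 IgG tumours (libraries KPCL-PCC_203_G, then KPCL-PCC_343_G, then KPCL-PCC_345_G and last KPCL-PCC_393_G), 1 library per mouse. Values listed library by library follow this order. No arm without gemcitabine was analysed here.

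During efferocytosis, the clearance of dying cells, phagocytes recognise phosphatidylserine exposed on the dying cell. Gas6 and protein S, the product of Pros1, bind phosphatidylserine through a vitamin K-dependent Gla domain and bind TAM receptors through their other end. Mfge8 bridges phosphatidylserine to integrins that contain the alpha-v chain instead. In tumours Mertk is best known from macrophages and Axl from invasive or drug-resistant carcinoma cells.

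Counts in genes ran from 15135457 to 18562458 in anti-LIF libraries and from 16175021 to 18972281 in IgG libraries. Markers of other cells than tumour epithelium were present despite the sort. The 15 macrophage markers took 2.0 to 3.32% of counts in anti-LIF libraries and 1.02 to 1.36% in IgG libraries. Of these markers 11 were called, each of them higher, and Cd68, Cd14, Mrc1 and Cd163 were not called. The 9 epithelial markers took 0.177 to 0.349% in anti-LIF libraries and 0.561 to 0.697% in IgG libraries, and all 9 were called lower. Acinar markers took 0.217 to 1.17% in anti-LIF libraries and 0.0288 to 0.162% in IgG libraries, with Amy2a5 at 0 in all libraries. Fibroblast markers took 0.0247 to 0.0956% in anti-LIF libraries and 0.0236 to 0.0887% in IgG libraries, and endothelial markers at most 0.00311% and 0.00355%. Neutrophil, dendritic cell and lymphocyte markers took at most 0.0175% each in anti-LIF libraries and 0.0170% in IgG libraries. The part of these markers in the results that follow was not tested. In bulk RNA, fewer cells of a type and less RNA per cell cannot be told apart.

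With anti-LIF the ligands Gas6 and Pros1 rose, Mfge8 and the receptor Tyro3 fell, and the receptors Mertk and Axl did not pass the test. Of the 6 genes, 2 were thus called higher, where 15.7% of all tested genes were called higher, and 2 lower, where 16.5% were called lower. In either direction 4 of 6 were called, against 32.2% of all tested genes. Calls are those of edgeR's quasi-likelihood test at an adjusted p of 0.05 with TMM (trimmed mean of M values) scaling. CPM below use the TMM-scaled size of each library, and each log2 fold change is anti-LIF minus IgG with its standard error. With this scaling a direction is set against the bulk of the tested genes. Scaling the libraries to the macrophage or the epithelial marker list shifted the median log2 fold change of all genes to −1.12 or 1.08, and the signs it turned are given with each gene.

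**Figure D1:**
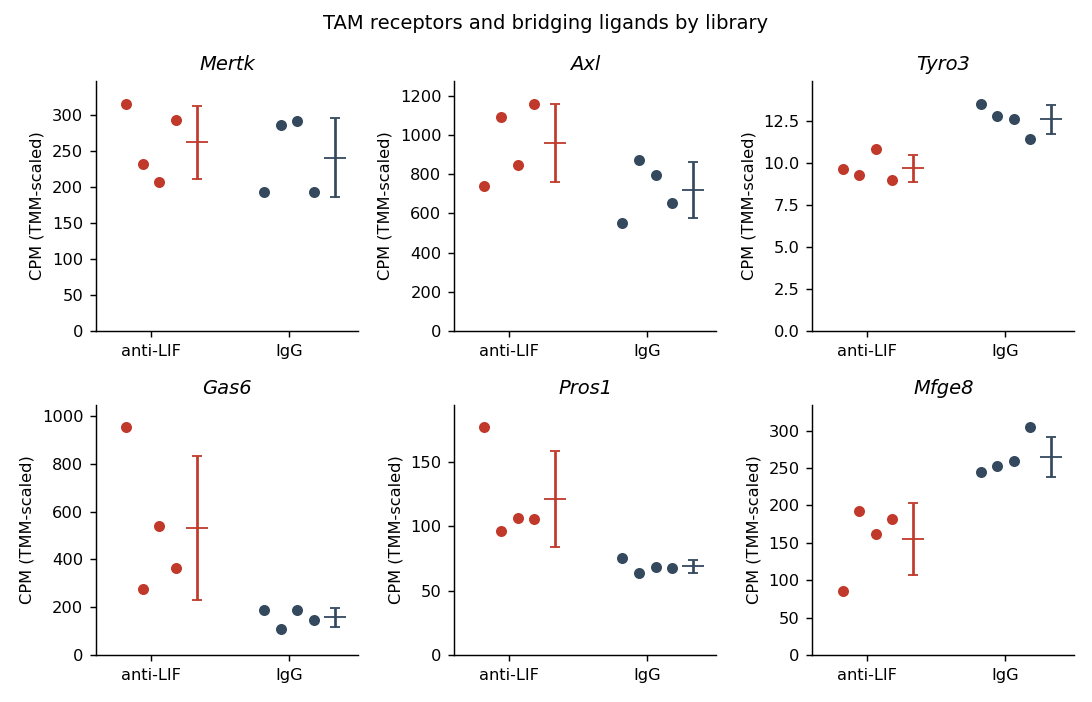
TMM-scaled CPM of each gene by library. Points are the 4 anti-LIF (left, red) and 4 IgG (right, grey) libraries in order of mouse number, and the bars beside them are the mean and SD. The arms do not overlap for Gas6 and Pros1 (anti-LIF above) or for Mfge8 and Tyro3 (anti-LIF below), and they overlap for Mertk and Axl. The genes without overlap are the 4 called, where 32.2% of all tested genes were called. The share of all tested genes without overlap on this scale was not counted. With libraries scaled to marker lists the signs of all but Gas6 turn under 1 or the other list.

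Because 3 of the 4 called genes encode bridging ligands, the 250 bases before the start of Gas6, Pros1 and Mfge8 are shown, on each gene's own strand. The promoters are those of RefSeq on GRCm38.p6, the reference mouse genome and not that of the FVB/NJ mice, and all 6 genes were matched by symbol. Strand and start met a check against transcript sequences for 4 of the 6, and which 4 was not recorded. Capitals mark the GC box GGGCGG on either strand and the STAT motif TTCNNNGAA. Gas6 stands at chr8:13494536-13494785 on the minus strand, Pros1 at chr16:62854057-62854306 on the plus strand and Mfge8 at chr7:79149061-79149310 on the minus strand.
Gas6: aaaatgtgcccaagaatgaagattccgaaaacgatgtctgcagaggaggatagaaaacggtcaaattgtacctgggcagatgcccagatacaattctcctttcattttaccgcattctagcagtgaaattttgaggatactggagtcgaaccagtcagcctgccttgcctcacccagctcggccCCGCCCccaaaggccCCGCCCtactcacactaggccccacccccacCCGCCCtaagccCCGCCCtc
Pros1: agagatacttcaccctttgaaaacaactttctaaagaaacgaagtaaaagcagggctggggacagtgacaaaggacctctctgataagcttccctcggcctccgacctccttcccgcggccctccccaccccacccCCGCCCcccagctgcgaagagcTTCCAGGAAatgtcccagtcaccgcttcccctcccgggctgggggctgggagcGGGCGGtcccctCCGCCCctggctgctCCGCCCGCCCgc
Mfge8: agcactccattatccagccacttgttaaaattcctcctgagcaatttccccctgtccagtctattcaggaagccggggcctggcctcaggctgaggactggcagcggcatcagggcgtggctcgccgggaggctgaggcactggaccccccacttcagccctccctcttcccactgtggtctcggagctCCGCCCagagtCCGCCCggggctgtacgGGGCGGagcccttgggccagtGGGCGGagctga
A GC box was found in all 6 promoters, with 4 matches in Gas6, 5 in Pros1, 4 in Mfge8, 3 in Mertk, 1 in Axl and 3 in Tyro3. It occurs in 32.7% of the 32851 promoters of the same length in the table. The last 2 matches of Pros1 overlap. The STAT motif matched in Pros1 alone of the 6, and in 7.02% of all promoters. The interferon-response core (TTTC, any 2 bases, TTTC) matched in 0 of the 6 and in 2.98% of all promoters. GC content was lowest in Gas6, at 54.8%, and ran to 65.2% in Mfge8 and 73.2% in Tyro3, against a median of 52.4% over all promoters. A match is a matter of letters and shows no binding.

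Gas6, the ligand that binds each of the TAM receptors, had 952, 275, 540.3 and 362 CPM in the 4 anti-LIF libraries, against 188, 108, 186 and 144 CPM in the 4 IgG libraries. Every anti-LIF library lay above every IgG library, and library KPCL-PCC_227_GA was the highest. The means were 532 ± 301 CPM with anti-LIF and 157 ± 38.3 CPM with IgG (SD, n = 4 each). Gas6 rose 3.40-fold (log2 fold change 1.77 ± 0.38, 95% interval 0.91 to 2.62, edgeR adjusted p = 0.0101). It stayed called with any single library left out. Without library KPCL-PCC_227_GA its log2 fold change was 1.33. Gas6 spans chr8:13465374-13494535 on mm10.

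Per length, Gas6 averaged 153 ± 75.2 FPKM (reads scaled by transcript length and library total) with anti-LIF and 50.6 ± 12.9 FPKM with IgG. Among the 6 genes it thus had the highest mean FPKM in the anti-LIF arm and the fourth highest in the IgG arm. Its first place over Axl was not shared by all libraries. Gas6 was the higher in KPCL-PCC_227_GA (254 against 102 FPKM) and KPCL-PCC_354_GA (165 against 133 FPKM). Axl was the higher in KPCL-PCC_310_GA (173 against 84.4 FPKM) and KPCL-PCC_391_GA (181 against 110 FPKM). Per 1000 macrophage-list counts of the same library, Gas6 had 24.2, 13.5, 25.9 and 15.6 reads with anti-LIF, against 16.4, 11.1, 14.3 and 13.3 with IgG. Measured this way the arms overlap. With libraries scaled to that list its log2 fold change was 0.53 (edgeR adjusted p = 0.0620), while the median of all genes was −1.12. Without Lyz2 in the list, an alternative added after the data were seen, Gas6 was called, at 0.90 (edgeR adjusted p = 0.00912). The median of all genes was then −0.77. Gas6 kept its sign under every scaling run.

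Pros1 encodes protein S, an anticoagulant of plasma and a ligand of Tyro3 and Mertk. It had 177, 96.3, 106 and 106 CPM in the 4 anti-LIF libraries, against 75.7, 63.6, 68.7 and 67.7 CPM in the 4 IgG libraries. The arms did not overlap, with anti-LIF above, and library KPCL-PCC_227_GA stood far from the other anti-LIF libraries, which lay close together. Pros1 averaged 121 ± 37.5 CPM with anti-LIF and 68.9 ± 5.01 CPM with IgG (SD, n = 4 each). It rose 1.76-fold (log2 fold change 0.82 ± 0.19, 95% interval 0.39 to 1.24, edgeR adjusted p = 0.0128). The call held with each library left out, and without library KPCL-PCC_227_GA the log2 fold change was 0.58 (edgeR adjusted p = 0.00412).

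The direction of Pros1 depended on the scaling. It was −0.39 with libraries scaled to the macrophage list and −0.02 with that list without Lyz2, its most abundant member, and neither passed the test. Scaled to the epithelial list it was 1.98. The median of all genes was −1.12 with the macrophage list and 1.08 with the epithelial list. Per 1000 macrophage-list counts Pros1 had 4.50, 4.74, 5.11 and 4.54 reads with anti-LIF, against 6.62, 6.54, 5.27 and 6.23 with IgG. On that measure every anti-LIF library lay below every IgG library, as was so for 79% of all tested genes. In length-scaled units Pros1 averaged 27.7 ± 6.35 FPKM with anti-LIF and 17.5 ± 1.81 FPKM with IgG. The gene lies at chr16:62854307-62929342.

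Mfge8, the secreted lactadherin that links phosphatidylserine to integrins, moved the other way. It had 85.3, 192, 162 and 182 CPM in the 4 anti-LIF libraries, against 245, 252, 259 and 304 CPM in the 4 IgG libraries. Each anti-LIF library was below each IgG library, and library KPCL-PCC_227_GA, the highest for Gas6 and Pros1, was the lowest for Mfge8. The means were 155 ± 48.3 CPM with anti-LIF and 265 ± 26.6 CPM with IgG (SD, n = 4 each), so Mfge8 fell 1.71-fold (log2 fold change −0.77 ± 0.23, 95% interval −1.29 to −0.26, edgeR adjusted p = 0.0311).

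This call did not hold for every set of 7 libraries. Without library KPCL-PCC_354_GA, KPCL-PCC_343_G, KPCL-PCC_345_G or KPCL-PCC_393_G the adjusted p of Mfge8 in edgeR was 0.0641, 0.0630, 0.0581 or 0.0752, at log2 fold changes from −0.79 to −0.70. Without library KPCL-PCC_227_GA it was −0.57 (edgeR adjusted p = 0.00813). Per 1000 epithelial-list counts Mfge8 had 40.6, 59.8, 60.0 and 51.2 reads with anti-LIF, against 37.9, 41.8, 48.0 and 51.8 with IgG. The arms overlap on that measure, and with libraries scaled to the epithelial list the log2 fold change was 0.24 (edgeR adjusted p = 0.323), where the median of all genes was 1.08. Mfge8 had 56.7 ± 19.9 FPKM with anti-LIF and 104 ± 12 FPKM with IgG. Its row covers chr7:79133768-79149060.

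Mertk, the receptor kinase that macrophages use for uptake of dying cells, had 315, 232, 207 and 293 CPM in the 4 anti-LIF libraries, against 192, 285, 291 and 193 CPM in the 4 IgG libraries. The arms overlap over most of their range. Mertk averaged 261 ± 50.7 CPM with anti-LIF and 240.3 ± 55.1 CPM with IgG (SD, n = 4 each; log2 fold change 0.12 ± 0.19, 95% interval −0.31 to 0.55, edgeR adjusted p = 0.653). That interval spans changes of either sign.

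Per 1000 macrophage-list counts, Mertk had 8.0, 11.4, 9.92 and 12.6 reads with anti-LIF, against 16.8, 29.3, 22.3 and 17.8 with IgG. There the arms do not overlap, with anti-LIF lower, as for 79% of all tested genes. With libraries scaled to that list Mertk was lower (log2 fold change −1.04, edgeR adjusted p = 0.00148), close to the median of all genes under that scaling, −1.12. Scaled to the epithelial list it was 1.22 (edgeR adjusted p = 0.00164), beside a median of 1.08. The sign also turned, at −0.04, with libraries scaled by size alone. In length-scaled units Mertk had 55.9 ± 8.55 FPKM with anti-LIF and 56.2 ± 10.9 FPKM with IgG. It spans chr2:128698997-128802188.

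Axl, a receptor kinase whose main ligand is Gas6, had 742, 1091, 846 and 1159 CPM in the 4 anti-LIF libraries, against 552, 871, 795 and 652 CPM in the 4 IgG libraries. The anti-LIF values were higher on average but the arms overlap, and library KPCL-PCC_227_GA was the lowest of its arm. Axl averaged 959 ± 198 CPM with anti-LIF and 718 ± 143 CPM with IgG (SD, n = 4 each; log2 fold change 0.42 ± 0.19, 95% interval −0.02 to 0.85, edgeR adjusted p = 0.124). Without library KPCL-PCC_227_GA the log2 fold change was 0.52 (edgeR adjusted p = 0.0609). Axl passed the test in none of the 8 fits with a library left out.

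Set against the epithelial markers, Axl was higher in each anti-LIF library. Per 1000 epithelial-list counts it had 353, 340, 314 and 327 reads with anti-LIF, against 85.5, 144, 147 and 111 with IgG, and the arms are far apart. Of all tested genes, 73.8% were likewise higher in each anti-LIF library. With epithelial-list scaling the log2 fold change of Axl was 1.45 (edgeR adjusted p = 0.000272), beside a median of 1.08 over all genes. With macrophage-list scaling Axl was −0.67 (edgeR adjusted p = 0.0487), beside a median of −1.12. Without Lyz2 in that list Axl was not called, at −0.31 (edgeR adjusted p = 0.309), beside a median of −0.77. None of these Axl values was tested against the median. The length-scaled level of Axl was 147 ± 36.7 FPKM with anti-LIF and 119.7 ± 20 FPKM with IgG. The authors' FPKM table holds another transcript of Axl (4773 bases) than the count table (5036 bases), so its FPKM and CPM come from different transcripts. The counted transcript lies at chr7:25756500-25788733.

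Tyro3, the TAM receptor best known from neurons, was scarce. It had 9.64, 9.28, 10.8 and 9.0 CPM in the 4 anti-LIF libraries, against 13.5, 12.8, 12.6 and 11.5 CPM in the 4 IgG libraries. These values rest on 134 to 175 reads in anti-LIF libraries and 212 to 249 reads in IgG libraries, and the arms do not overlap. Tyro3 averaged 9.68 ± 0.798 CPM with anti-LIF and 12.6 ± 0.859 CPM with IgG (SD, n = 4 each), and it fell 1.30-fold (log2 fold change −0.38 ± 0.12, 95% interval −0.64 to −0.12, edgeR adjusted p = 0.0351).

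The Tyro3 call was lost without library KPCL-PCC_227_GA, KPCL-PCC_310_GA, KPCL-PCC_391_GA, KPCL-PCC_203_G, KPCL-PCC_343_G or KPCL-PCC_345_G, with edgeR adjusted p values of 0.0558, 0.0731, 0.0822, 0.0791, 0.0799 and 0.0722, and the log2 fold change with 1 library left out ran from −0.44 to −0.34. Scaled to the epithelial list it turned to 0.72 (edgeR adjusted p = 0.0128), where the median of all genes was 1.08. Per length, Tyro3 had 1.86 ± 0.203 FPKM with anti-LIF and 2.64 ± 0.220 FPKM with IgG, in the 24th percentile of tested genes in the anti-LIF arm and the 27th percentile in the IgG arm. The gene is at chr2:119799514-119818103. No other row of the count table overlaps the span of any of the 6 genes.

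**Figure D2:**
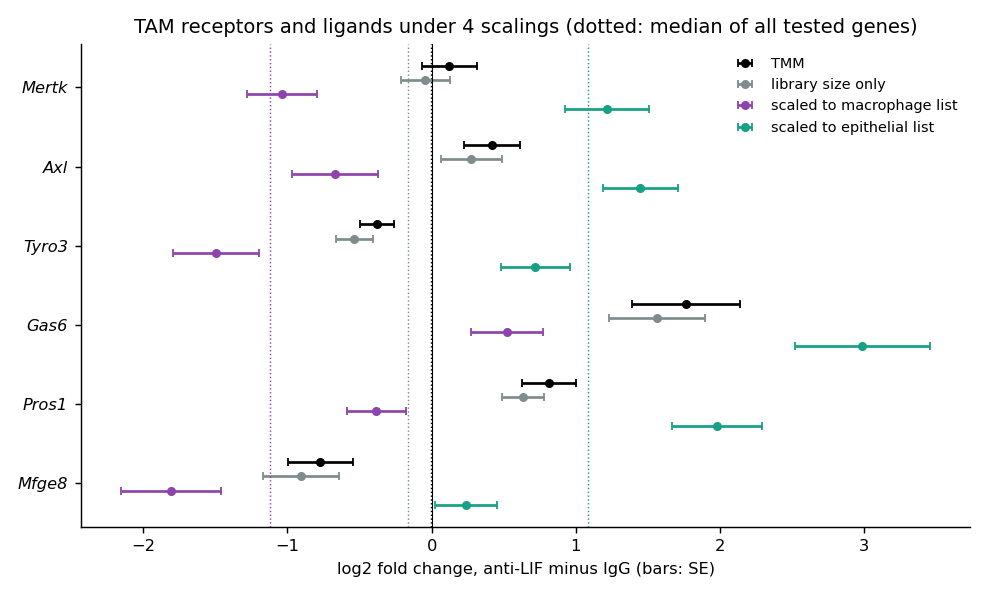
Log2 fold change (anti-LIF minus IgG, horizontal) of each gene under 4 ways of scaling the libraries, with bars of 1 standard error. Dotted lines mark the median of all tested genes under each scaling, which lies at −1.12 with the macrophage list and 1.08 with the epithelial list; Gas6 lies right of 0 under all 4, and each of the other genes turns sign under at least 1 of them.

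Ordered by FPKM, the anti-LIF arm ran from Gas6 and Axl through Mfge8 and Mertk to Pros1 and Tyro3. In the IgG arm the order was Axl, Mfge8, Mertk, Gas6, Pros1 and Tyro3. Neighbours closer than the larger SD of the pair were Gas6 and Axl, and Mfge8 and Mertk, in the anti-LIF arm, and Axl and Mfge8, and Mertk and Gas6, in the IgG arm. Axl and Mfge8 lay above the 97th percentile of tested genes in the IgG arm, at 97.8 and 97.3, and Gas6 moved to the 98.1st percentile in the anti-LIF arm, against the 92.8th percentile in the IgG arm. Per length, Axl exceeded the other TAM receptors in both arms.

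Ratios of counts within a library do not depend on how libraries are scaled, so they compare the genes with each other directly. The ratio of Mfge8 to Gas6 was 0.0897, 0.697, 0.300 and 0.502 in the 4 anti-LIF libraries, against 1.31, 2.34, 1.39 and 2.11 in the 4 IgG libraries. Mfge8 had fewer reads than Gas6 in 4 of 4 anti-LIF libraries and more in 4 of 4 IgG libraries. The mean log2 ratio differed by −2.47 (exact two-sided permutation p = 0.0286, the smallest that 70 assignments allow; adjusted p = 0.0476 over 5 ratios). Gas6 and Mfge8 each separated the arms in CPM, in opposite directions, so this p was fixed by those values and adds no support. The adjusted p of the other ratios counts it among the 5, and none of them would pass 0.05 without it. Without library KPCL-PCC_227_GA the difference was −1.87.

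The ratio of Gas6 to Pros1 was 5.37, 2.86, 5.08 and 3.43 with anti-LIF, against 2.48, 1.69, 2.71 and 2.13 with IgG. The anti-LIF libraries lay above, so that Gas6 rose more than Pros1 (log2 difference 0.87, exact two-sided permutation p = 0.0286, adjusted p = 0.0476). Among the receptors, Axl to Tyro3 was 76.9, 117, 78.3 and 129 with anti-LIF, against 40.8, 68.1, 63.1 and 56.9 with IgG (log2 difference 0.80, exact permutation p = 0.0286, adjusted p = 0.0476). Here too the arms do not overlap. The adjusted p of Gas6 to Pros1 and of Axl to Tyro3 is under 0.05 only with Mfge8 to Gas6 counted. Mertk to Axl was 0.213 to 0.425 with anti-LIF and 0.296 to 0.366 with IgG (log2 difference −0.29, exact permutation p = 0.257, adjusted p = 0.257). Mertk to Tyro3 was 19.1 to 32.7 with anti-LIF and 14.2 to 23.1 with IgG (log2 difference 0.51, exact permutation p = 0.114, adjusted p = 0.143). In both of these ratios the arms overlap.

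**Figure D3:**
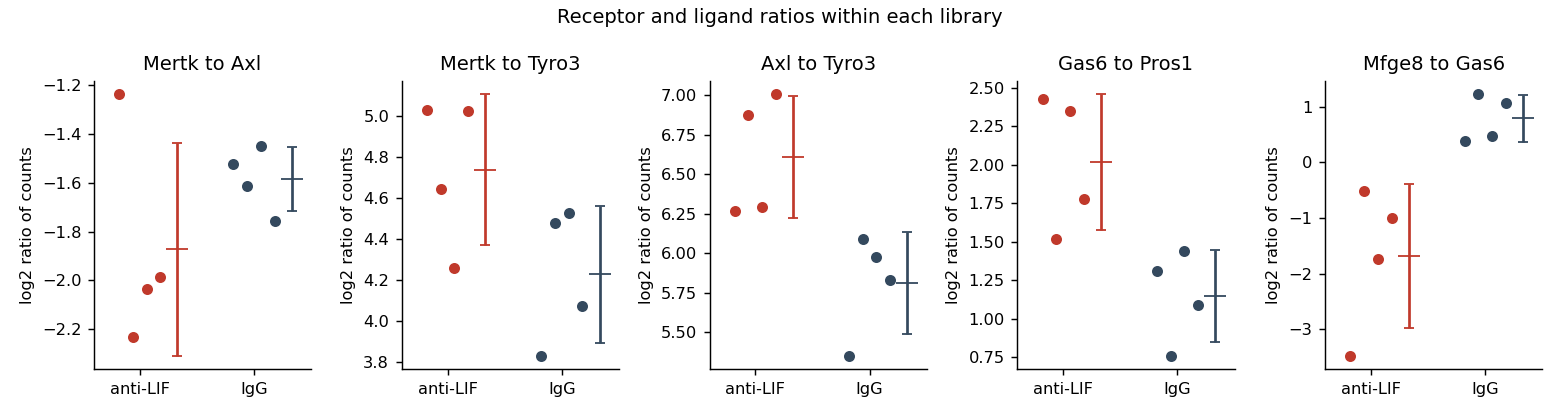
Log2 of the ratio of read counts of gene pairs within each library, for 4 anti-LIF (left, red) and 4 IgG (right, grey) libraries, with mean and SD beside the points. The arms are apart for Axl to Tyro3, Gas6 to Pros1 and Mfge8 to Gas6, and overlap for Mertk to Axl and Mertk to Tyro3.

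Against macrophage-list counts Mertk, Tyro3, Pros1 and Mfge8 were lower in each anti-LIF library than in each IgG library, while Axl and Gas6 overlapped between the arms. Of all tested genes, 79% were likewise lower in each anti-LIF library on this measure. Against epithelial-list counts Mertk, Axl, Tyro3, Gas6 and Pros1 were higher in each anti-LIF library, and Mfge8 overlapped. Of all tested genes, 73.8% were higher in each anti-LIF library on that measure.

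**Figure D4:**
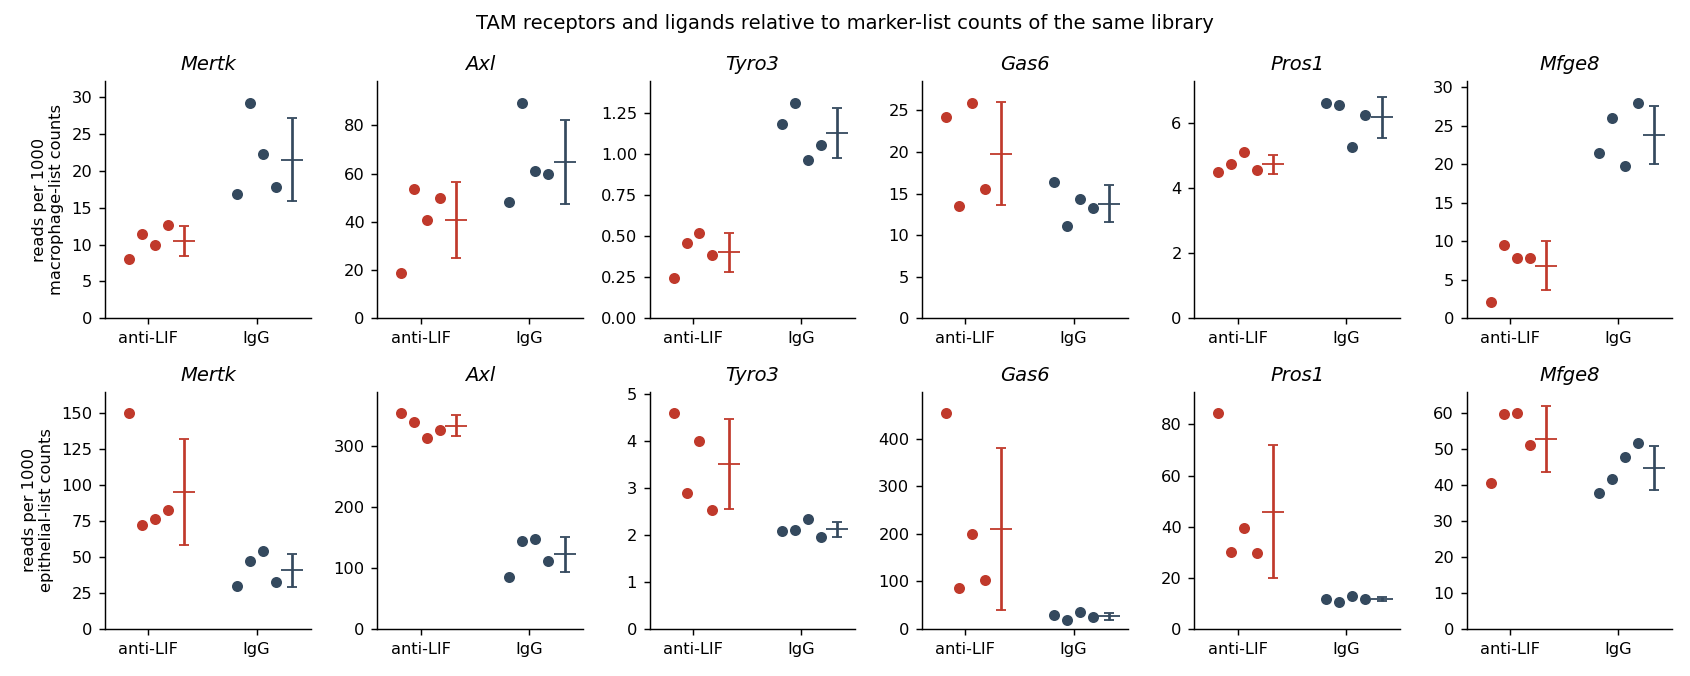
Reads of each gene per 1000 counts of the macrophage list (upper row) and of the epithelial list (lower row) of the same library, for 4 anti-LIF (left, red) and 4 IgG (right, grey) libraries, with mean and SD beside the points. Above, Gas6 and Axl overlap between the arms and the other genes are lower with anti-LIF; below, Mfge8 overlaps and the other genes are higher with anti-LIF. Of all tested genes, 79% are lower in each anti-LIF library on the upper measure and 73.8% higher on the lower one.

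The genes whose levels followed each of the 6 most closely within the arms were taken from 11645 genes by the Pearson correlation of log2 CPM after removal of the arm means, over 8 libraries. The coefficients, from 0.9611 to 0.9945, describe few libraries and carry no test. Nearest to Gas6 were Irf2, Maf and Rcn3. Pros1 was followed by Peg13 and Ccm2, and Mfge8 by Lurap1l, Cnksr1 and Me1. Mertk was followed by Ppp4r1l-ps, Tmem203 and Plxdc2, and Tyro3 by Mest, Cbs and Ube2j1. Axl was followed by Arfip2 and by Ang3 and Ang5, near-identical copies whose reads the counting could split.

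The rest of the pathway was described by 9 lists of 90 tested genes, of which 28 were called higher and 14 lower (46.7%, against 32.2% of all tested genes). The median log2 fold change over the 90 genes was 0.12, and −0.006 over all tested genes. With libraries scaled to the macrophage list these counts turned to 3 higher and 63 lower, where 1.13% of all tested genes were called higher and 81.8% lower. With the epithelial list they turned to 68 higher and 1 lower, where 77.9% of all tested genes were called higher and 1.01% lower. Without library KPCL-PCC_343_G, 9 were called lower. The called share was 66.7% for other phosphatidylserine receptors and for other bridging molecules, and 75% for carboxylation of Gla proteins. It was 61.5% for engulfment, 40% for shedding, 37.5% for find-me and do-not-eat-me genes and 36.4% for TAM signalling. Phosphatidylserine exposure had 28.6%, and digestion and lipid sensing 13.3%. Each is to be read against the 32.2% of all tested genes. All directions below are with TMM scaling.

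Of 18 other phosphatidylserine receptors and co-receptors, 7 were called higher and 5 lower. The lower calls were 2 without library KPCL-PCC_227_GA, KPCL-PCC_310_GA, KPCL-PCC_354_GA, KPCL-PCC_343_G or KPCL-PCC_345_G. Stab1, stabilin-1 of macrophages, had 2927, 1487, 1724 and 1624 CPM in anti-LIF libraries, against 356, 247, 502 and 297 CPM in IgG libraries (log2 fold change 2.47 ± 0.29, edgeR adjusted p = 0.00284). The macrophage tethering receptor Timd4 had 72.9, 30.6, 25.8 and 43.3 CPM with anti-LIF and 7.63, 3.84, 9.83 and 5.19 CPM with IgG (2.70 ± 0.40, edgeR adjusted p = 0.00410). Both kept their sign and call with libraries scaled to the macrophage list, at 1.29 and 1.49. Cd300lb, a myeloid receptor, rose by 1.57 ± 0.24 on the log2 scale and was 0.36 with that scaling (edgeR adjusted p = 0.118). Ager, the receptor RAGE, fell by 1.59 ± 0.25 on the log2 scale, with at most 2.35 CPM in anti-LIF libraries and at least 3.84 CPM in IgG libraries, and was −0.53 with epithelial-list scaling (edgeR adjusted p = 0.143). Havcr1 and Stab2 did not pass the filter on low counts. Cd14 is on this list and on the macrophage list.

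Of 9 other bridging molecules, 5 were called higher and 1 lower, with Tub below the filter, and 2 were lower without library KPCL-PCC_310_GA. C1qa and C1qb, subunits of complement C1q, had log2 fold changes of 1.45 ± 0.28 and 1.48 ± 0.29 (edgeR adjusted p = 0.00702 and 0.00773). C1qa had 5549, 2629, 2540.2 and 2921 CPM with anti-LIF, against 1399, 981, 1392 and 1227 CPM with IgG, and library KPCL-PCC_227_GA was again the highest. Anxa5, the phosphatidylserine-binding annexin, and Calr, calreticulin, rose by 0.89 ± 0.13 and 0.67 ± 0.14. With macrophage-list scaling none of these 4 was called, at 0.23 for C1qa, 0.27 for C1qb, −0.21 for Anxa5 and −0.44 for Calr.

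Gla proteins such as Gas6 and protein S need vitamin K-dependent carboxylation. Of the 4 genes of that step, Ggcx, the carboxylase, rose by 0.84 ± 0.14 and Vkorc1, the vitamin K epoxide reductase, by 0.99 ± 0.16 (edgeR adjusted p = 0.00489 and 0.00485). Ggcx had 28.4, 22.97, 19.96 and 23.1 CPM with anti-LIF, against 15.6, 12.03, 12.2 and 12.97 CPM with IgG, without overlap. Vkorc1 had 39.97, 26.7, 24.7 and 27.2 CPM with anti-LIF, against 13.4, 15.05, 16.8 and 14.5 CPM with IgG. Nqo1, a quinone reductase, fell by 1.21 ± 0.25 on the log2 scale, and Vkorc1l1, the paralogue of Vkorc1, was not called (−0.11, edgeR adjusted p = 0.295). Scaled to the macrophage list, Ggcx and Vkorc1 turned to −0.32 and −0.19, neither called, and scaled to the epithelial list Nqo1 was −0.18 (edgeR adjusted p = 0.559).

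Among 11 genes of TAM signalling and its inhibitory arm, 4 were called by edgeR (36.4%, against 32.2% of all tested genes), each of them higher. With libraries scaled by size alone 1 more was called lower. Ifnar1, a chain of the type I interferon receptor through which TAM receptors dampen inflammation, rose by 0.64 ± 0.13 (edgeR adjusted p = 0.00846). The phospholipase Plcg2 and the adaptor Grb2 rose by 0.70 ± 0.10 and 0.42 ± 0.10. The remaining 7, which include the kinase genes Pik3ca and Akt1 and the feedback inhibitors Socs1 and Socs3, were not called. With macrophage-list scaling Ifnar1, Plcg2 and Grb2 turned to −0.50, −0.41 and −0.72, and 8 of the 11 genes were called lower, where 81.8% of all tested genes were.

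Of 5 genes of ectodomain shedding, by which TAM receptors are cut from the surface, Adam17, the protease that sheds Mertk, had 224, 210.2, 201 and 190.1 CPM with anti-LIF, against 118, 114, 130 and 114 CPM with IgG. The log2 fold change was 0.79 ± 0.08 (edgeR adjusted p = 0.00235), and −0.33 with macrophage-list scaling (adjusted p = 0.186). Rhbdf1, an iRhom that escorts Adam17, fell by 0.67 ± 0.09 on the log2 scale (edgeR adjusted p = 0.00327) and turned to 0.41 with epithelial-list scaling (edgeR adjusted p = 0.0698), while Rhbdf2, its counterpart in myeloid cells, was not called (0.08, edgeR adjusted p = 0.553).

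Of 13 engulfment genes, 6 were called higher and 2 lower. The lower calls were 1 without library KPCL-PCC_227_GA, KPCL-PCC_354_GA, KPCL-PCC_391_GA, KPCL-PCC_203_G, KPCL-PCC_343_G or KPCL-PCC_393_G. Rhog, Elmo2, Vav1 and Vav3, which act on the Rac switch that moves the membrane around a target, had log2 fold changes of 0.77 ± 0.13, 0.67 ± 0.11, 0.66 ± 0.12 and 1.05 ± 0.17 (edgeR adjusted p of 0.00485, 0.00485, 0.00590 and 0.00485). Rac1 and Dock1 were not called. With libraries scaled to the macrophage list Rhog, Elmo2, Vav1 and Vav3 turned to −0.38, −0.46, −0.48 and −0.07, and 8 of the 13 genes were called lower, beside the 81.8% of all tested genes.

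Of 8 find-me and do-not-eat-me genes, 1 was called higher and 2 lower, and 2 were higher without library KPCL-PCC_345_G. Cx3cr1, the fractalkine receptor of myeloid cells, had 192, 363, 217 and 447 CPM with anti-LIF, against 65.1, 41.5, 85.8 and 26.9 CPM with IgG (log2 fold change 2.47 ± 0.40, edgeR adjusted p = 0.00485). It kept its sign and call with macrophage-list scaling, at 1.46 (edgeR adjusted p = 0.00285). P2ry2, a receptor for released nucleotides, and Cd24a, a do-not-eat-me signal, fell by 0.59 ± 0.15 and 0.86 ± 0.22 on the log2 scale. Scaled to the epithelial list they turned to 0.47 and 0.17 (edgeR adjusted p = 0.0582 and 0.523). The Cd24a call was lost without library KPCL-PCC_343_G (edgeR adjusted p = 0.0545). Cd47 and its receptor Sirpa were not called. Sirpa came close to the threshold (0.42 ± 0.14, edgeR adjusted p = 0.0508).

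Of 7 genes of phosphatidylserine exposure, the scramblase Xkr8 was called higher and Xkr4 lower. Xkr4 was scarce, at 0.255 to 0.803 CPM with anti-LIF and 1.19 to 1.98 CPM with IgG. Xkr8 had 7.02, 5.94, 5.31 and 5.44 CPM with anti-LIF, against 4.47, 2.97, 4.05 and 4.49 CPM with IgG (0.57 ± 0.19, edgeR adjusted p = 0.0457), but it lost the call whichever library was left out (edgeR adjusted p up to 0.0976). It turned to −0.57 with macrophage-list scaling (edgeR adjusted p = 0.1096), and Xkr4 was −0.46 with epithelial-list scaling (edgeR adjusted p = 0.276). Of 15 genes of digestion and lipid sensing, 1 was called higher and 1 lower, with 2 higher without library KPCL-PCC_345_G and 2 lower without library KPCL-PCC_310_GA or KPCL-PCC_203_G. Pparg, the lipid-sensing nuclear receptor, had 5.62, 16.3, 8.16 and 15.3 CPM with anti-LIF, against 28.8, 57.9, 49.8 and 41.6 CPM with IgG (−1.97 ± 0.35, edgeR adjusted p = 0.00583), and it was called lower also with libraries scaled to either marker list. Dnase2a, a lysosomal nuclease, had a log2 fold change of 0.56 ± 0.18 (edgeR adjusted p = 0.0390), and −0.59 with macrophage-list scaling (edgeR adjusted p = 0.0169). Its call was lost without library KPCL-PCC_227_GA, KPCL-PCC_310_GA, KPCL-PCC_354_GA, KPCL-PCC_203_G, KPCL-PCC_343_G or KPCL-PCC_393_G (edgeR adjusted p up to 0.103).

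**Figure D5:**
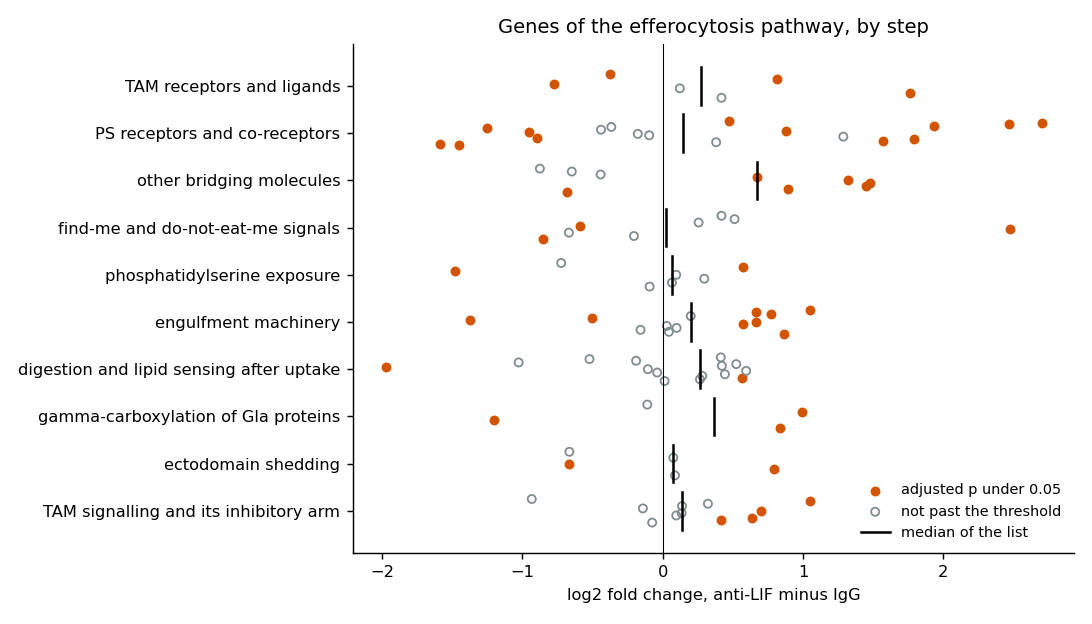
Log2 fold change (anti-LIF minus IgG) of each tested gene of the 6 TAM receptors and ligands and of the 9 pathway lists, with TMM scaling. Filled points passed the adjusted p threshold of 0.05 in edgeR, open points did not, and the vertical strokes are list medians; scaled to the macrophage list 3 of the 90 pathway genes are higher and 63 lower (81.8% of all tested genes are lower), and scaled to the epithelial list 68 are higher and 1 lower (77.9% of all tested genes are higher).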

How the data were processed

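Per the submitters' processing notes, reads were checked with FastQC 0.11.2, aligned to mm10 with STAR 2.4.0k and counted with HOMER, and edgeR 3.6.8 was named for their own comparison. The HOMER version, strand setting, annotation version and read filters were not given in the sources used here. Values of the count table, as deposited by the authors, are raw counts of reads on 1 transcript per gene. The authors' deposited FPKM table equals those counts divided by transcript length and by the library total in the file headers: all 168000 values of 21000 shared transcripts matched within 0.002. There were 0 unused columns of single samples.

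Counts were tested in R 4.3.3 with edgeR 4.0.16 (filterByExpr, TMM, quasi-likelihood test with arm as the single term, Benjamini-Hochberg over 14711 genes, threshold 0.05). CPM use TMM library sizes, and log2 CPM for likeness used a prior count of 2 and genes of mean CPM at least 5. The marker shares use counts in genes. Standard errors of the edgeR fit are the absolute log2 fold change divided by the square root of the F statistic. Intervals (95%) use them with the total degrees of freedom of that fit, 8.889, which are residual plus prior. Ratios were tested by exact two-sided permutation over 70 assignments of 4 libraries against 4, whose smallest p is 0.0286, and adjusted over 5 ratios. Each library is 1 individually dissected tumour. No library was a copy of another. The fit was tested on simulated counts in which few genes changed, in random directions. In the data 32.2% of genes were called, so that test does not show how the scaling behaves under such a shift. RefSeq promoters (250 bases before the start) were searched on both strands.

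The 6 genes, the pathway and marker lists and the tests were chosen with earlier results of these data known. Genes named are the 6, the up to 4 lowest p values of each pathway list, markers that touch a result, and the 3 closest genes of each of the 6. Some genes that the rule gives are not reported here. Genes outside this rule were named after their values were known. Alternatives were other scalings, filters, DESeq2 1.42.0, limma 3.58.1 (voom, and log2 FPKM with a pseudocount of 1 or 0.1) and each library left out.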

Additional observations from a re-analysis of the deposited data

Results flagged for a closer look

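Library KPCL-PCC_227_GA of the anti-LIF arm lay far from the other anti-LIF libraries for Pros1 and for 8 of the named pathway genes, by a test for 1 distant value among 4. Of 108 groups of 4 values examined, 9 gave such a value, where chance gives about 1 in 20 for independent normal values. The groups share the same 8 libraries, so the 9 are not separate pieces of evidence. Pros1 stood at 177.1 CPM in library KPCL-PCC_227_GA, against 96.28 to 106.3 CPM in the others. Also high there were Stab1 at 2927 CPM (others 1487 to 1724), Cd300lb at 148.6 CPM (72.4 to 77.67), C1qa at 5549 CPM (2540.2 to 2921), Vav1 at 228.4 CPM (176.4 to 183.5) and Dnase2a at 127.1 CPM (81.54 to 88.81). Rxra stood at 278.5 CPM (155.4 to 172.6) and Vkorc1 at 39.97 CPM (24.72 to 27.2). Cd24a was low, at 133.1 CPM (266.8 to 286.4). Library KPCL-PCC_227_GA also held the highest macrophage-list share, 3.32%, and the part of that share in these values was not tested.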

How the results depend on the processing

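Beside TMM, RLE, upper-quartile, DESeq2, limma-voom and the stricter filter left every call of the 6 genes on its side. With libraries scaled by size alone 1430 genes were called higher and Mertk was −0.043, and with the totals of the file headers 1527 and −0.0077. Log2(FPKM + 0.1) gave 1535 genes higher, and log2(FPKM + 1) gave Mertk −4.93e-05. These moved the median of all genes by up to −0.16. Without a filter 1 of the 6 was called lower, since Tyro3 (−0.377) had an edgeR adjusted p of 0.0543. Scaled to the macrophage list, 166 genes were higher and 12027 lower, of the 6 genes 0 and 4, and of the pathway 3 and 63; Mertk was −1.04, Axl −0.667, Gas6 0.525 and Pros1 −0.385. Without Lyz2 in that list, an alternative added after the data were seen, 337 were higher and 9777 lower. Of the 6 genes 1 was higher, Gas6 (0.896, edgeR adjusted p = 0.00912), and 3 lower. The pathway had 9 higher and 48 lower, and Mertk was −0.667, Axl −0.309 (edgeR adjusted p = 0.309) and Pros1 −0.0178. Scaled to the epithelial list, 11466 were higher and 148 lower, of the 6 genes 5 and 0, and of the pathway 68 and 1; Mertk was 1.22, Axl 1.45, Tyro3 0.718 and Mfge8 0.238. By construction these list scalings move all genes one way. With 1 library left out, 1457 to 2195 genes were higher and 1502 to 2146 lower, 0 to 1 of the 6 genes and 9 to 14 of the pathway were lower, Tyro3 ran from −0.436 to −0.343 and Mfge8 from −0.885 to −0.571. The direction of all 5 ratios held in each alternative run. No paired analysis was possible because no mouse number is shared between the arms. Among the 6 genes depth limits Tyro3 most, at 134 to 249 reads a library, and 4 libraries an arm limit every call.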
